A study of Nasonia vitripennis and Nasonia giraulti with 12 samples.

Results

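Genes whose sex bias pointed in opposite directions in a pair of closely related species of jewel wasp are described here. Of 24337 genes counted, 45 were at least 2-fold higher in a given sex of Nasonia vitripennis and at least 2-fold higher in the other sex of Nasonia giraulti. In 32 of them the higher groups were N. vitripennis males and N. giraulti females, and in 13 the higher groups were N. vitripennis females and N. giraulti males. The genes were chosen by the mean level of each group, as log2 of CPM (each count as a share of its library total, scaled to 1e6) plus 0.5. A gene needed a mean of at least 2 CPM in at least 1 group, which 13190 genes had, and a difference of at least 1 on that scale in each species. Another 12 genes, 6 in each direction, met these conditions and were left out because a single group stood at least 2 log2 units above the other 3. Because all 12 libraries entered the choice, the sex differences of the 45 genes are given as a description, with no test.

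RNA came from whole bodies of adults 24 h after eclosion, in pools of 10 wasps. The 4 groups were females and males of N. vitripennis (strain AsymCX) and females and males of N. giraulti (strain R16A), untreated as far as the labels say, with 3 libraries each. Library totals lay between 23763596 and 51374887 counts. A floor of 3 counts corresponded to 0.0584 to 0.126 CPM in a single library. Genes carry the identifiers of the deposited table (Nasvi2EG), and the gene table at hand, with 15501 RefSeq genes, held 0 of them. What the genes encode is therefore not stated, no sequence is shown, and the labelled sexes and tissue could not be checked against named marker genes.

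Jewel wasps are haplodiploid: unfertilised eggs develop into haploid males and fertilised eggs into diploid females. Somatic sex in insects is set through sex-specific splicing of doublesex, a transcription factor, and much of the sex-biased RNA in whole adult insects is known to come from the gonads and the glands attached to them. The bias of a gene is usually kept between closely related species, and a gene whose bias is turned around is an exception. In whole bodies, a smaller organ or fewer cells of a type cannot be told apart from less RNA per cell.

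In these libraries too, opposite bias was the rare case. With genes having a single high group kept, 1976 genes had a male excess of 2-fold or more in both species. A female excess of that size in both was found in 3363. Counted the same way, opposite bias was found in 38 genes toward N. vitripennis males and N. giraulti females. In the other direction there were 19, and without genes having a single high group these are the 45 described here. Opposite directions of any size, leaving out genes with a single group far above the rest, were found in 1066 genes toward N. vitripennis males and N. giraulti females and in 478 the other way. Most of the 45 lay near the threshold. The smaller of the 2 sex differences was between 1 and 1.2 log2 units in 17 of the 32 genes and in 7 of the 13. The genes just inside it stood at 1.001 and 1.01 in the larger group and at 1.01 and 1.05 in the smaller one. Those just outside stood at 0.990 and 0.990 and at 0.999 and 0.989.

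**Figure D1:**
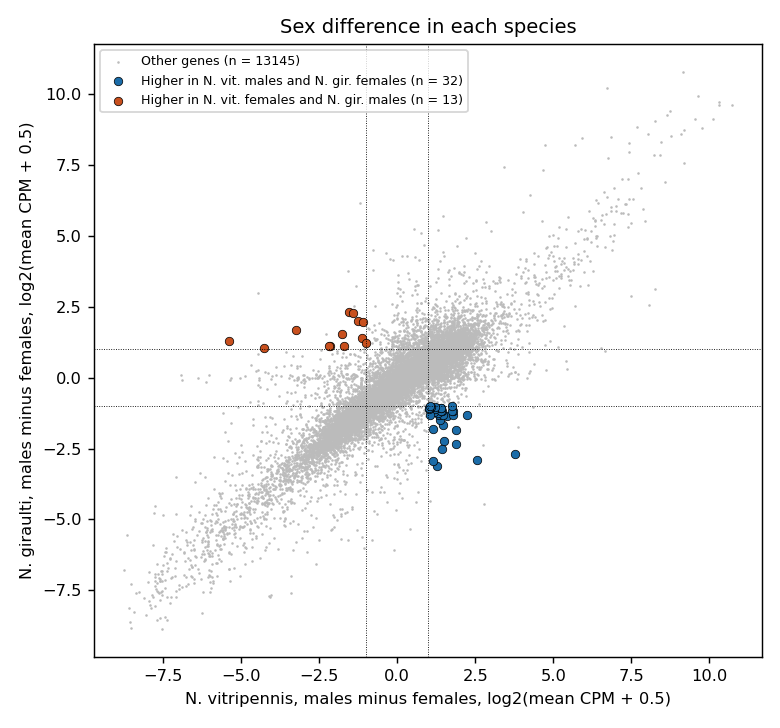
Difference of males minus females in N. vitripennis (horizontal axis) and in N. giraulti (vertical axis), both in log2(mean CPM + 0.5); each point is a gene with at least 2 CPM in a group, and dotted lines mark differences of -1 and 1. The 32 and 13 chosen genes sit in the lower right and upper left corners, close to the lines, away from the diagonal cloud of the rest.

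How many genes fell in each direction depended on how the libraries were scaled. With library totals 32 genes lay toward N. vitripennis males and N. giraulti females and 13 the other way. With trimmed-mean (TMM) scaling the counts were 14 and 29, with upper-quartile scaling 15 and 27, and with the size factors of DESeq2 17 and 27. The share in the first direction was thus 71.1% with library totals and 32.6%, 35.7% and 38.6% with the others. Over the 13190 genes, the median difference of males minus females in log2 units was 0.0099 in N. vitripennis and -0.17 in N. giraulti with library totals. TMM scaling moved these medians to -0.17 and 0, and upper-quartile scaling to 0.41 in both species. All 45 genes kept both of their directions under each of these 3 scalings. Nothing is read from this, because the scalings moved the medians by less than the 1 log2 unit that the rule required. Of the 32 genes 14, 7 and 17 still met the thresholds under TMM, upper-quartile and DESeq2 scaling, and of the 13 genes 12, 7 and 12. The genes that met them under every one of the scalings were 5 of the 32 and 7 of the 13.

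Single libraries also decided membership. The libraries of the sexes did not overlap in either species in 26 of the 32 genes, where 1.03% of the 13190 genes showed this arrangement, and in 8 of the 13, against 0.576%. These are the values that the choice was made on, so nothing is read from the shares. In the 11 genes with overlap, it lay in N. giraulti in 10 cases and in N. vitripennis in 3. When each of the 12 libraries was left out in turn, 12 of the 32 and 5 of the 13 genes were chosen every time. Without replicate 1 of the N. giraulti males 46 and 15 genes met the conditions, of which 27 and 9 were among the 32 and the 13. The clearest case, singled out after its values were seen, was Nasvi2EG003991. It stood at 255.7, 0.790 and 0.415 CPM in the 3 libraries of N. giraulti males and at 62.1, 22.7 and 20.1 CPM in females. Its higher mean in N. giraulti males came from 1 library, and in the other 2 males lay far below females. In N. vitripennis it stood at 55.3, 78.2 and 101 CPM in females and at 0.798, 1.94 and 1.37 CPM in males, with no overlap. The 788 genes at least 10-fold higher in N. vitripennis females than in males and at 10 CPM or more there took 0.533% of the counts in this N. giraulti male library. They took 0.411% and 0.413% in the other N. giraulti males and 10.1% to 11.04% in N. giraulti females. By that definition the 788 include Nasvi2EG003991 itself and the preceding identifier Nasvi2EG003990, at 255.7 and 887 CPM in this library. The share is thus not separate from the outlying values, and nothing is read from it. The part of this in the result was not tested.

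**Figure D2:**
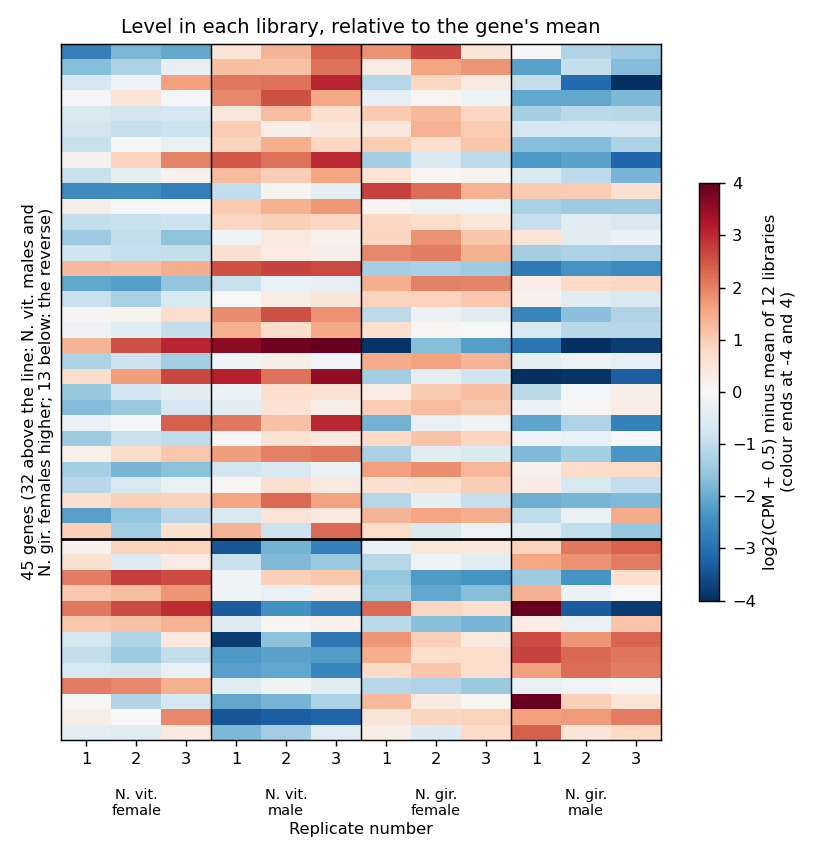
Level of each of the 45 genes (rows) in each of the 12 libraries (columns, by group and replicate number) as log2(CPM + 0.5) minus the gene's mean over the libraries; red is above and blue below that mean. The 32 genes above the line are red in N. vitripennis males or N. giraulti females and the 13 below it in N. vitripennis females or N. giraulti males, and in a few rows a single library differs from the other 2 of its group.

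Among the genes higher in N. vitripennis males and N. giraulti females, the gene with the largest value for the smaller of its 2 sex differences was Nasvi2EG019548. Its levels were 0.421, 1.22 and 0.983 CPM in N. vitripennis females and 8.14, 15.02 and 31.7 CPM in males. In N. giraulti they were 20.8, 39.3 and 8.10 CPM in females and 5.43, 2.13 and 1.74 CPM in males. The sexes did not overlap in either species, and the 3 libraries of each higher group were spread widely. Mean levels were 18.3 CPM ± 12.1 (SD, n = 3) in N. vitripennis males against 0.876 ± 0.412 in females, a ratio of 20.9. In N. giraulti they were 22.7 CPM ± 15.7 in females against 3.10 ± 2.03 in males, a ratio of 7.34. Nasvi2EG001187, the other gene with both differences over 2 log2 units and singled out after its values were seen, was 6.96-fold higher in N. vitripennis males (16.4 CPM ± 7.08 against 2.35 ± 1.46). It was 9.71-fold higher in N. giraulti females (13.8 CPM ± 6.56 against 1.42 ± 0.847).

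The most abundant gene of this direction without overlap was Nasvi2EG011431. It stood at 137, 189 and 242 CPM in N. vitripennis females and at 307, 468 and 379 CPM in males. N. giraulti females had 447, 482 and 581 CPM and males 370, 189.8 and 149 CPM. Its ratios were close to the threshold, 2.03 toward males in N. vitripennis and 2.13 toward females in N. giraulti. The N. giraulti male library numbered 1 lay nearer to the females than the other 2 did, and under upper-quartile scaling the N. giraulti difference fell to -0.38 log2 units. The gene missed the thresholds when any of 5 of the 12 libraries was left out.

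Of the 32 genes, 17 were highest in N. vitripennis males and 15 in N. giraulti females. Mean levels over the 4 groups ran from 1.05 to 328 CPM with a median of 11.8, and 13 genes stood below 10 CPM. In 9 genes at least 1 group had a mean below 0.5 CPM, the size of the added constant, which shrinks the difference of such genes. In 14 genes all 4 groups stood at 2 CPM or more. The sex difference in log2 units had a median of 1.41 in N. vitripennis (range 1.02 to 3.77) and of -1.30 in N. giraulti (range -3.12 to -1.001). It was the larger one in N. vitripennis in 19 genes. Seen within each sex, 16 genes were lower in N. giraulti than in N. vitripennis males and higher in N. giraulti than in N. vitripennis females, 7 of them by at least 1 log2 unit in both sexes. In 12 genes both sexes were higher in N. vitripennis, and in 4 both were higher in N. giraulti.

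In the other direction, ranked by the smaller of the 2 sex differences among genes without overlap, Nasvi2EG000204 came first. Its levels were 14.0, 23.3 and 24.1 CPM in N. vitripennis females and 0.701, 2.99 and 1.49 CPM in males. N. giraulti females had 10.4, 17.0 and 16.8 CPM and males 23.8, 55.4 and 65.4 CPM. Females of the 2 species were at similar levels, and males lay below the females in N. vitripennis and above them in N. giraulti. The mean was 20.5 CPM ± 5.61 (SD, n = 3) in N. vitripennis females against 1.73 ± 1.16 in males, a ratio of 11.8. In N. giraulti it was 48.2 CPM ± 21.7 in males against 14.8 ± 3.75 in females, a ratio of 3.27. Within the sexes, N. giraulti minus N. vitripennis was 4.45 log2 units in males and -0.46 in females.

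Nasvi2EG006105 was the most abundant of all 45 genes. It stood at 256, 238 and 323 CPM in N. vitripennis females and at 87.6, 94.01 and 65.3 CPM in males. In N. giraulti it reached 692, 852 and 640 CPM in females and 1239, 1879 and 1651 CPM in males. Each N. giraulti library was above every N. vitripennis library, and the sexes were ordered differently in the 2 species. Females were 3.31-fold higher in N. vitripennis, and males were 2.18-fold higher in N. giraulti. Without the N. giraulti male library numbered 2 the latter difference was 0.988 log2 units, just under the threshold.

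Of these 13 genes, 9 were highest in N. giraulti males and 4 in N. vitripennis females. Mean levels ran from 5.005 to 668 CPM with a median of 13.7. The sex difference had a median of -1.72 log2 units in N. vitripennis (range -5.40 to -1.01) and of 1.41 in N. giraulti (range 1.05 to 2.33). No gene of this direction reached a difference of 2 log2 units in both species. In 7 genes the species differed in opposite directions in males and in females, 1 of them by at least 1 log2 unit in both sexes, and in 5 both sexes were higher in N. giraulti. Fractional counts, such as a read divided between genes leaves, were present in 5 of the 13 genes and in 2 of the 32, and the levels of these 7 are uncertain. They made up 15.6% of the 45 genes and 17.4% of the 13190.

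**Figure D3:**
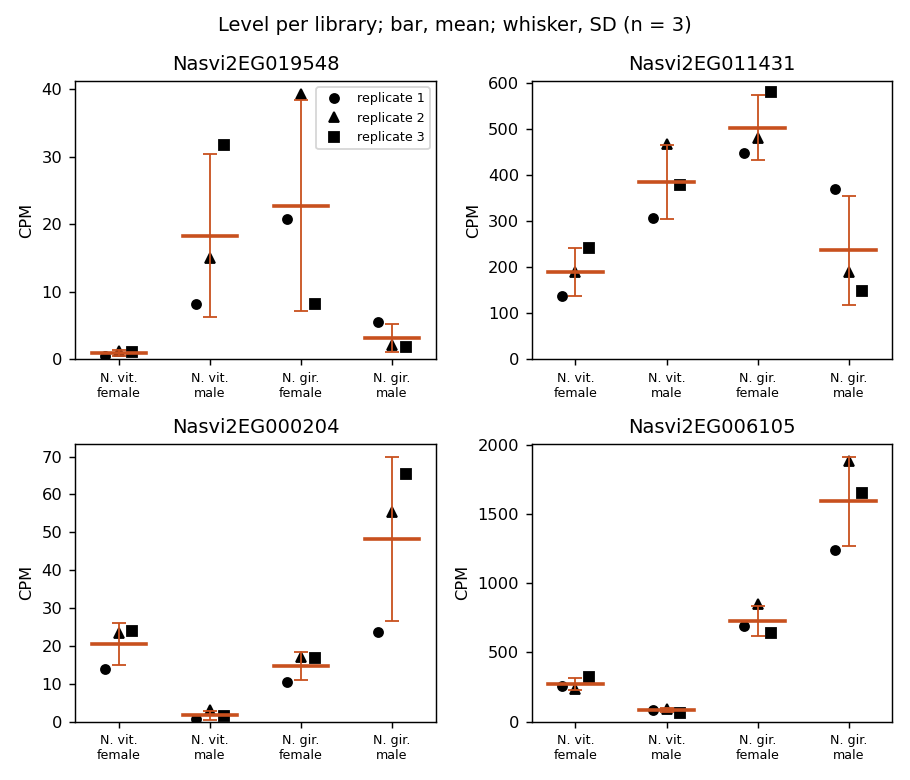
Level in CPM of 4 genes in each library (symbols by replicate number), with the mean (bar) and SD (whisker, n = 3) of each group; every axis starts at 0. Nasvi2EG019548 and Nasvi2EG011431 are higher in N. vitripennis males and N. giraulti females, and Nasvi2EG000204 and Nasvi2EG006105 in N. vitripennis females and N. giraulti males.

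The rule was applied again to the libraries of 2 replicate numbers, and the third was set aside and had no part in that repeat choice. Each left-out set holds 1 library per group, so there is no test. These repeat choices overlap with the 45 genes, whose own choice used the left-out libraries too. Toward N. vitripennis males and N. giraulti females, leaving out the libraries numbered 1 gave 48 genes, of which 35 had both directions again in those libraries, where 10.1% of the genes eligible for the rule had them. Both differences reached at least 1 log2 unit in 17 of the 48, against 0.298% of eligible genes. With the libraries numbered 2 left out, all 26 chosen genes kept both directions (9.40% of eligible genes) and 18 kept both at that size (0.538%). With those numbered 3 left out, 27 of 33 kept both directions (9.98%) and 15 kept the size (0.237%).

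In the reverse direction, 15 of 15 genes chosen without the libraries numbered 1 had both directions in them (4.03% of eligible genes), and 6 kept the size (0.157%). For the libraries numbered 2 these were 15 of 17 (3.69%) and 7 (0.0871%), and for those numbered 3 they were 9 of 10 (4.68%) and 6 (0.182%). In every one of the 6 cases the left-out libraries had the chosen directions in a larger share of the chosen genes than of eligible genes. These shares describe the repeat choices and are no test of the genes chosen on all libraries. The median differences in the left-out libraries lay between 1.31 and 1.41 log2 units in N. vitripennis and between -1.42 and -1.12 in N. giraulti for the first direction. For the reverse direction they lay between -1.61 and -1.40 and between 1.14 and 1.40.

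**Figure D4:**
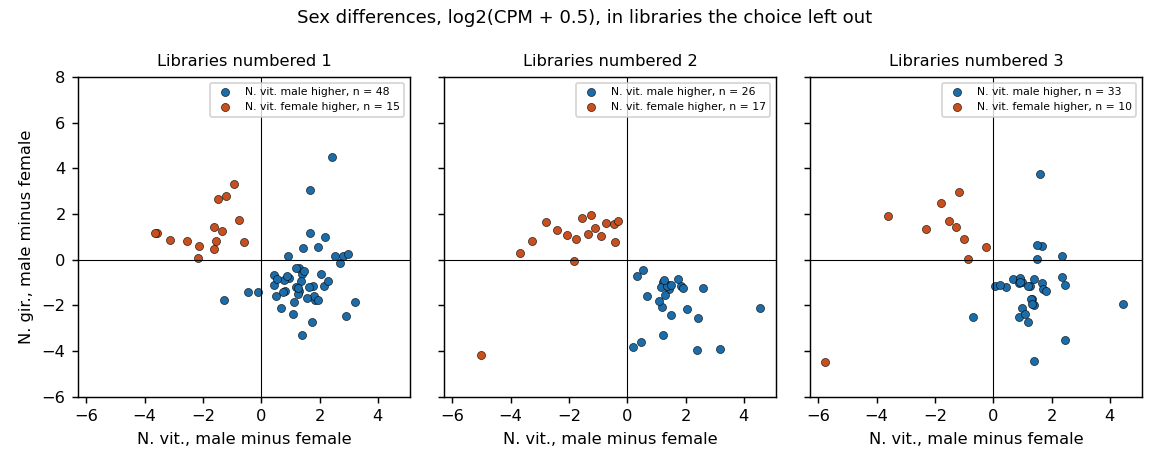
Difference of male minus female in log2(CPM + 0.5) in N. vitripennis (horizontal) and N. giraulti (vertical), in the libraries of 1 replicate number, for genes chosen on the libraries of the other 2 numbers; each point is a gene. Most points lie in the quadrant they were chosen for, with 13 of 48, 0 of 26 and 6 of 33 outside it for N. vitripennis males higher, and 0 of 15, 2 of 17 and 1 of 10 for N. vitripennis females higher.

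The average difference between the species, taken over both sexes, is a different contrast from the sex differences that chose the genes. It is not free of the choice. Opposite bias of this size needs a species difference of at least 1 log2 unit in males or in females, and genes with a single high group were excluded. All 45 genes passed the filter on low counts. Averaged over the sexes, 17 of the 45 were higher in N. giraulti and 18 were lower (quasi-likelihood test of edgeR over 16536 genes, p adjusted by Benjamini-Hochberg and under 0.05, n = 6 libraries per species). Of all tested genes 18.0% were higher and 23.5% lower. The species difference was thus called in 77.8% of the 45 genes and in 41.5% of all tested genes. The median size of the difference was 1.77 log2 units in the 45 genes and 0.489 in the tested genes. Because the choice needs a species difference in males or in females, nothing is read from the larger share and size. Among genes higher in N. vitripennis males and N. giraulti females 14 were lower in N. giraulti and 9 higher, and in the reverse direction 4 were lower and 8 higher. A call on the average does not mean that both sexes differed alike. In 16 of the 32 and 7 of the 13 genes, males and females differed between the species in opposite directions. The test cannot tell expression from how well the reads of each species aligned, because the reference used for each was not given in the sources used here.

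Among the called genes with at least 10 CPM in a species and no fractional counts, the lowest species ratios belonged to Nasvi2EG010974 and Nasvi2EG004882. Nasvi2EG010974 stood at 71.04, 159 and 230.0 CPM in N. vitripennis females and at 329, 413 and 473 CPM in males. N. giraulti females had 1.31, 7.98 and 5.55 CPM and males 3.11, 1.25 and 1.47 CPM. Every N. vitripennis library was at 71.04 CPM or more and every N. giraulti library at 7.98 CPM or less, and the sexes overlapped in N. giraulti. The average species ratio, N. giraulti to N. vitripennis, was -6.31 as a log2 fold change (SE 0.52, edgeR adjusted p = 2.01e-06), and all 6 N. giraulti libraries lay below all 6 of N. vitripennis. Nasvi2EG004882 stood at 73.9, 146 and 288 CPM in N. vitripennis females and at 393, 204 and 529 CPM in males. It stood at 17.0, 35.3 and 25.9 CPM in N. giraulti females and at 2.25, 2.49 and 4.19 CPM in males, a log2 fold change of -4.87 (SE 0.42, edgeR adjusted p = 2.74e-06). The sexes overlapped in N. vitripennis and were far apart in N. giraulti.

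The highest ratios in the same set belonged to Nasvi2EG027744 and Nasvi2EG009045. Nasvi2EG027744 stood at 0.758, 0.816 and 0.610 CPM in N. vitripennis females and at 3.23, 7.49 and 5.25 CPM in males. It stood at 49.1, 34.07 and 19.2 CPM in N. giraulti females and at 14.8, 14.4 and 11.1 CPM in males. Its log2 fold change was 3.45 (SE 0.27, edgeR adjusted p = 4.75e-07), with all 6 N. giraulti libraries above all 6 of N. vitripennis. Nasvi2EG027743, the preceding identifier and singled out after its values were seen, is the only other of the 45 genes whose identifier is consecutive with that of another. It had the same order of groups, at 0.0972 CPM in N. vitripennis females, 0.777 in males, 5.10 in N. giraulti females and 2.25 in males, and it has fractional counts. Nasvi2EG009045 had a log2 fold change of 3.36 (SE 0.65, edgeR adjusted p = 0.00142). Its N. giraulti male libraries stood at 53.4, 6.23 and 4.57 CPM and its N. giraulti females at 8.02, 3.97 and 3.20 CPM, so the N. giraulti sexes overlapped and the male mean rested on the library numbered 1. Without that library the species log2 fold change was 2.48, and without all 4 libraries numbered 1 it was 2.15. Without the 4 numbered 3 it was 3.98, and the gene was called in each of these fits.

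Averaged over the sexes, Nasvi2EG000204 and Nasvi2EG006105 were also higher in N. giraulti. Their log2 fold changes were 2.19 (SE 0.33, edgeR adjusted p = 0.000135) and 2.84 (SE 0.17, edgeR adjusted p = 5.05e-08). In Nasvi2EG000204 only males were higher in N. giraulti, by 4.45 log2 units, and females were lower, at -0.46. In Nasvi2EG006105 both sexes were higher, males by 4.26 and females by 1.42 log2 units. For Nasvi2EG019548 the estimate was 1.10 (SE 0.49, edgeR adjusted p = 0.0919) and for Nasvi2EG011431 it was 0.37 (SE 0.23, edgeR adjusted p = 0.232), and neither passed the threshold. In both genes males were lower and females higher in N. giraulti. Of 21 alternatives, 5 called Nasvi2EG019548 higher in N. giraulti (log2 fold changes from 0.41 to 1.86 over all 21), among them the DESeq2 test. For Nasvi2EG011431 it was 1 of 21, without the N. giraulti male library numbered 3, at 0.67.

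**Figure D5:**
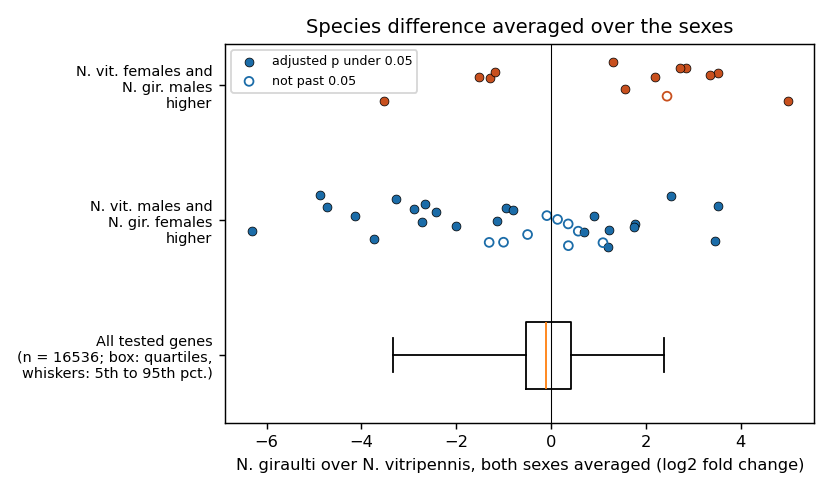
Log2 ratio of N. giraulti to N. vitripennis, averaged over the sexes, for the 32 and 13 genes (points, filled where the edgeR adjusted p was under 0.05) and for all 16536 tested genes (box with quartiles, whiskers from the 5th to the 95th percentile). The 45 genes spread from -6.31 to 4.99, with 18 filled points on the left of 0 and 17 on the right.

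Differences between replicate numbers within the groups were a measure the choice did not use. Libraries of different groups with the same number deviated from their group means in a correlated way, and 10 of the 12 correlated best with their own number in every other group. Of the 45 genes 5 were called for the replicate number (edgeR quasi-likelihood F test on 2 degrees of freedom, adjusted p under 0.05), which is 11.1% of them, against 33.5% of all tested genes. The 45 genes were less abundant than the 13190, with a median of 12.4 CPM against 25.9, and varied more within groups, with a median SD of 0.449 log2 units against 0.325. The part of level and spread in the lower share was not tested. The 5 genes were Nasvi2EG004704, Nasvi2EG000204, Nasvi2EG002452, Nasvi2EG010433 and Nasvi2EG001187, with edgeR adjusted p of 0.000378, 0.00273, 0.0232, 0.0345 and 0.0367. Nasvi2EG004704 had its lowest value in the library numbered 1 of every group. It stood at 8.40, 14.9 and 18.5 CPM in N. vitripennis females and at 21.2, 40.4 and 37.2 CPM in males. In N. giraulti it stood at 30.4, 51.9 and 58.4 CPM in females and at 11.5, 24.1 and 29.4 CPM in males. The order of the sexes was the same within each replicate number. Between the libraries numbered 2 and 3 alone 0 of the 45 genes passed (edgeR, 4 at an unadjusted p under 0.05), and 40 of 16471 tested genes did.

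The sex contrasts themselves were called in opposite directions in both species in 21 of the 32 genes, against 0.399% of the tested genes, and in 8 of the 13, against 0.677%. These contrasts chose the genes, so the counts only describe how many of the opposite differences exceeded the spread between libraries in both species. In N. vitripennis 27 of the 32 and 10 of the 13 were called, and in N. giraulti 22 and 11. For a single species no share of all tested genes is given here, so nothing is read from these counts. With upper-quartile factors 12 of the 32 were called in both species, and without the libraries numbered 2 the count was 10.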

How the data were processed

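For 24337 genes in 12 libraries the authors deposited unscaled estimated counts. The submitters' processing notes name edgeR, TopHat2 2.0, HTSeq, Cufflinks 2.1.0, bedtools, Trimmomatic, CASAVA 1.8.2 and FastQC, without their roles. Genome build and annotation were not given in the sources used here. Per the labels' protocols, libraries were made from 2 ug of total RNA, and replicates were separate batches. Fractional counts were taken as a sign of genes that share reads. The floor of 3 counts covers counting error only.

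For the choice of genes, counts were divided by library totals. For tests they were rounded, filtered with filterByExpr (minimum count of 10) and scaled by TMM. All libraries entered 1 quasi-likelihood model with 4 group means (edgeR 4.0.16, R 4.3.3), and the SE is the log2 fold change over the square root of F. The script was tested on simulated data.

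Libraries with the same replicate number deviated together across groups (18 pairs, r from 0.20 to 0.708, and -0.574 to 0.325 in 36 other pairs). This pairing comes from the data. A replicate block was an alternative. The genes, the direction lists and the tests were chosen with earlier results of these data known.

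The genes named by rule were, per direction, the gene with the largest smaller sex difference and the most abundant one, without overlap or fractional counts. For the species difference they were the 2 highest and the 2 lowest called genes with at least 10 CPM in a species and no fractional counts. For the replicate number they were the 2 with the smallest p.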

Additional observations from a re-analysis of the deposited data

Results flagged for a closer look

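The 4 genes named by rule for their sex differences were taken from those without overlap. In each, therefore, all libraries of a sex lay above all of the other sex in N. vitripennis and below them in N. giraulti. This held in 34 of the 45 genes, 26 of the 32 (1.03% of the 13190 genes) and 8 of the 13 (0.576%). The genes were chosen on these values, so nothing is read from the shares. The sex difference of N. giraulti minus that of N. vitripennis, in log2(mean CPM + 0.5), was -6.46 for Nasvi2EG019548, -2.11 for Nasvi2EG011431, 4.91 for Nasvi2EG000204 and 2.84 for Nasvi2EG006105. The difference was not tested, because the genes were chosen by it.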

How the results depend on the processing

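The number of genes toward N. vitripennis males and N. giraulti females and the reverse, 32 and 13, was 14 and 29 with TMM-scaled CPM, 15 and 27 with upper-quartile scaling and 17 and 27 with DESeq2 size factors. It was 52 and 25 with a constant of 0.1 and 13 and 8 with 2. It was 21 and 13 at a minimum of 10 CPM, 2 and 0 at a difference of 2 log2 units, and 8 in the reverse direction without fractional counts. With the median of the 3 libraries of a group in place of the mean it was 41 and 11. Of these, 26 and 7 were among the 32 and the 13. Leaving out a library or a replicate number gave 26 to 48 and 10 to 17 genes. Members with opposite sex calls, 21 and 8, were 12 of the first kind with upper-quartile factors and 5 of the second without fractional counts, and 10 to 25 and 6 to 9 with libraries left out. Members called for the replicate number, 5, were 8 with DESeq2 and 0 to 6 with a number left out. Members called higher and lower in N. giraulti, 17 and 18, were 16 to 20 and 13 to 19 with libraries left out. With the replicate block they were 18 and 18, with 25 and 9 opposite sex calls. Stricter thresholds and the leaving out of genes lower a count by construction, and the cause of the other changes was not tested. Depth limited genes with a group near the floor of 3 counts, and the 3 libraries per group limited the precision of all.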

Other observations

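Neighbours of the 45 genes in the order of identifiers, singled out after their values were seen, showed further opposite arrangements. Nasvi2EG000205 and Nasvi2EG000207 follow Nasvi2EG000204 and go the other way. Nasvi2EG000205 had means of 4.87 CPM in N. vitripennis females, 35.4 in males and 2.12 in N. giraulti females, and 0 reads in the 3 N. giraulti male libraries. Nasvi2EG000207 had 1.95, 49.9 and 0.525 CPM and likewise 0 reads in N. giraulti males. Both belong to the 12 genes left out for a single high group. Nasvi2EG000206, between them, had male means of 2121 CPM (N. vitripennis) and 16058 CPM (N. giraulti) and female means of 17.9 and 44.4 CPM.

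In 3 consecutive identifiers, singled out after their values were seen, the N. giraulti male library numbered 1 stood apart. Nasvi2EG003989 had 39.8 CPM in it and 0 reads in the other 2 N. giraulti male libraries. Nasvi2EG003990 had 887, 0.456 and 0.226 CPM in the 3 libraries, and Nasvi2EG003991 had 255.7, 0.790 and 0.415 CPM. The N. giraulti female library with the same number was also the highest of its group in Nasvi2EG003990, at 88.3 against 16.6 and 5.81 CPM, and in Nasvi2EG003991, at 62.1 against 22.7 and 20.1 CPM. In N. vitripennis the last pair stood at 46.7 and 78.2 CPM in females and at 1.64 and 1.37 CPM in males, with no library apart. This run was not the only place. Nasvi2EG009694 had 863, 9.20 and 9.96 CPM in N. giraulti males and 53.7, 2.68 and 4.78 CPM in females. Nasvi2EG005746 had 39.5, 0.516 and 0.151 CPM in N. giraulti males and 36.9, 0.554 and 0.715 CPM in females. Both were singled out in the same way. The library numbered 1 was not the only one to stand high. In N. giraulti males Nasvi2EG000410 had 17.6, 5.07 and 61.4 CPM and Nasvi2EG000412 had 0.808, 0.213 and 5.25 CPM, highest in the library numbered 3.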
